A study of Homo sapiens with 12 samples.

Results

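The mRNAs of 10 histone lysine demethylases of the Jumonji family were followed in cancer cells that had been passaged through pulses of hydroxychloroquine (HCQ), an antimalarial agent that disturbs lysosomes and autophagy. The members were taken by symbol from the deposited gene table and were KDM2A, KDM2B, KDM3A, KDM3B, KDM4A, KDM4B, KDM4C, KDM5A, KDM5B and KDM6B, 10 of 28278 gene symbols. The study asked which transcripts differ between HCQ-evolved and control cultures in each of the lines labelled OVCAR3 (ovarian cancer) and CCL218 (colorectal cancer). HCQ-evolved cultures carry the passage label 15 and had received 15 drug pulses of 48 h, at 20 to 50 µM as the study's methods give it, and then grew for 7 days without drug before polyA RNA was taken. Control cultures were passaged without HCQ and carry the passage label 19, so drug history and passage label cannot be told apart. Each of the 4 groups had 3 libraries, each a pool of the wells in the left (L), middle (M) or right (R) part of one 96-well plate, so the pools of a group are mixtures of many small cultures from the same plate and not separate experiments, and p-values measure the spread between such pools.

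Jumonji demethylases are iron-dependent dioxygenases that use oxygen and 2-oxoglutarate to remove methyl groups from histone lysines. KDM3A and KDM3B act on methylated H3K9, the KDM4 enzymes on H3K9 and H3K36, KDM2A and KDM2B on H3K36, KDM5A and KDM5B on H3K4, and KDM6B on H3K27. KDM3A, KDM4B and KDM4C are known as targets of the hypoxia-inducible factors (HIF), transcription factors that bind the hypoxia response element, whose core letters are ACGTG or GCGTG.

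The 12 libraries held 31147822 to 59965861 gene counts. Marker genes as sets did not separate the lines in the way the labels would. In the control OVCAR3 pools the ovarian markers WT1, ESR1, EMX2, SOX17, CDH6 and LHX1 were under 1 CPM (counts scaled to library size). The other 5 of 11 ovarian markers reached 1 CPM, and the summed level of the list was 57.6 to 96.3 CPM. Among these 5, control means were higher in OVCAR3 than in CCL218 for MUC16 (21.2 and 9.11 CPM), WFDC2 (21.9 and 8.10), FOLR1 (4.66 and 2.69) and PAX8 (11.4 and 8.74). The control mean of MSLN was lower in OVCAR3 (13.5 and 66.9 CPM). In the control OVCAR3 pools 12 of 14 colorectal markers reached 1 CPM, with a summed level of 999 to 1178 CPM, of which LGALS4 alone gave 619 to 796 CPM. Control CCL218 pools summed to 1376 to 1905 CPM (LGALS4 925 to 1445 CPM), and the same 6 ovarian markers were under 1 CPM there. The line names are therefore used below as labels only. The HCQ-evolved OVCAR3 R pool stood apart from the L and M pools of its group, with colorectal markers CDX2 at 0.785 CPM against 7.90 and 9.21 CPM and LGALS4 at 130 CPM against 469 and 432 CPM, and the OVCAR3 estimates of the members and the OVCAR3 counts of the gene lists are given with and without it. Without it 1.92% of 12113 genes tested were called higher and 2.67% lower by edgeR. Control OVCAR3 M also deviated from its group, in the same direction by transcript length (below), and was kept in those fits. Estimates without HCQ-evolved R are thus not corrected ones.

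The letters before the start sites are shown for the members named above as HIF targets, with ACGTG or GCGTG on either strand in capitals. KDM4B, on the plus strand at chr19:4968863-4969112 (the 250 bases before its RefSeq start, GRCh38.p14, outside its annotated exons), holds both cores, and the ACGTG core lies inside CACGTG, the letters of an E-box, so those motifs overlap.
KDM4B: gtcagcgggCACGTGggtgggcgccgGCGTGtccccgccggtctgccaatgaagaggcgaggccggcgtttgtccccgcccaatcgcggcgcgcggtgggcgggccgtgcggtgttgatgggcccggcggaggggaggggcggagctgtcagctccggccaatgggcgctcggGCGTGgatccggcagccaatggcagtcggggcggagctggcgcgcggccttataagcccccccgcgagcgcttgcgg
KDM4A: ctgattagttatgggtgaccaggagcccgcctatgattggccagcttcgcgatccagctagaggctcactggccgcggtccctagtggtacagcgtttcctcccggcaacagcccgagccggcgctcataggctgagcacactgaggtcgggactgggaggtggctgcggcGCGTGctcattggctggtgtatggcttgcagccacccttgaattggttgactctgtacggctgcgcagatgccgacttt
KDM3A: ccgggaggctgtGCGTGtcttgtgagagc
KDM4C: tgtttgtaagccCACGTGactcaccaagtg
KDM4C: ggccccagcggtCACGTGacggcgcgcgcg
The KDM4A window (plus strand, chr1:43649899-43650148) is shown beside that of its paralog KDM4B and has 1 GCGTG and no ACGTG. For KDM3A only the 29 bases around its GCGTG are shown (chr2:86441333-86441361, plus strand), because its windows overlap an annotated exon of the gene, and this core begins at -26 from the first of its RefSeq starts. KDM4C has its pair of CACGTG sites at chr9:6757898-6757927 and chr9:6757930-6757959 (plus strand), so its ACGTG cores also lie inside E-box letters. Its GCGTG at -96 (chr9:6757865-6757893) is not printed, and its window too overlaps an annotated exon of the gene. Across the 16 RefSeq windows of the 10 members, 2 held ACGTG (12.5%) and 12 held GCGTG (75.0%), against 18.5% and 32.2% of 35116 windows of 250 bases in the table. The windows are not independent, since some genes have several and those of KDM3A overlap and hold the same GCGTG. These matches describe letters in a window and not bound sites.

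All 10 members passed the expression filter in both lines (at least 1 CPM in at least 3 libraries of the line), with 1056 to 14849 counts in any library. In CCL218, KDM3A and KDM4B rose with HCQ evolution by edgeR's quasi-likelihood test (threshold 0.05 on the adjusted p) and no member fell, where 3.82% of 12241 genes tested were called higher and 2.64% lower. In OVCAR3 none of the 10 members was called by edgeR, where 0.647% of 12204 genes were called higher and 1.21% lower. There 1 member (KDM4B, higher) and 1 member (KDM6B, lower) had an unadjusted p under 0.05, while DESeq2 called KDM6B lower. Over all genes tested, 1983 of 12204 in OVCAR3 and 3084 of 12241 in CCL218 had an unadjusted edgeR p under 0.05, the background for such counts below. With plate position as a replicate block the same 2 members were called in CCL218, of 1744 genes called in all against 791. The median log2 fold change (HCQ-evolved over control) of the members was 0.11 in OVCAR3 and 0.19 in CCL218, against 0.016 and -0.017 for all genes tested. Pools of the groups did not overlap, with HCQ-evolved higher, for KDM3A, KDM4B, KDM4C and KDM5B in CCL218 (18.5% of genes tested, with 17.4% lower) and for KDM4B in OVCAR3 (13.5%), and with HCQ-evolved lower for KDM6B in OVCAR3 (12.3%). Bulk libraries cannot tell a change in the number of cells that express a gene from a change in RNA per cell.

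**Figure D1:**
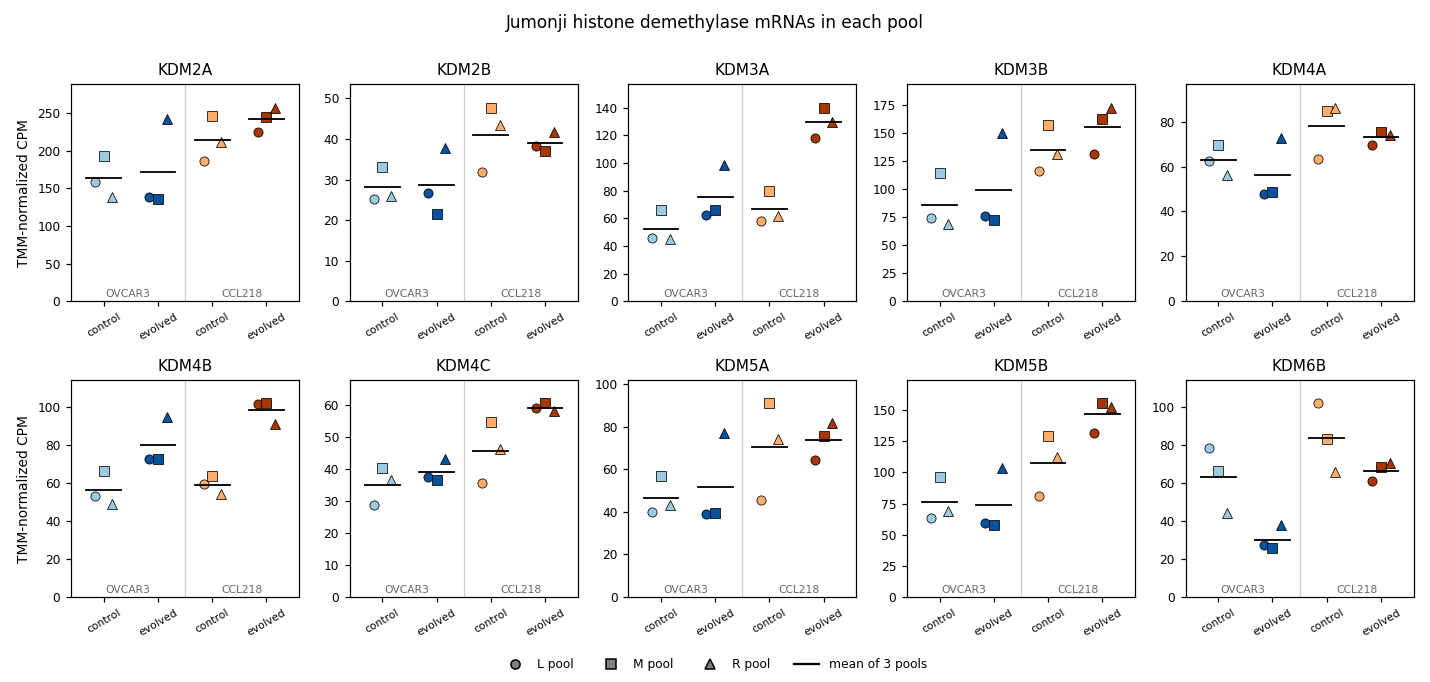
TMM-normalized CPM (y axis, from 0) of each of the 10 demethylase genes in every pool of the 4 groups, with L, M and R pools as circles, squares and triangles and the mean of 3 pools as a bar. The KDM3A and KDM4B pools of the HCQ-evolved CCL218 cells lay above all control pools, and the HCQ-evolved OVCAR3 R pool lay above the L and M pools of its group in all 10 panels.

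KDM3A, an H3K9me1 and H3K9me2 demethylase, nearly doubled in CCL218. Control CCL218 pools held 57.6 (L), 79.8 (M) and 61.8 (R) CPM and HCQ-evolved pools 118, 140 and 130 CPM. All HCQ-evolved pools were above all control pools, with means of 66.4 ± 11.8 and 129 ± 10.96 CPM (SD, n = 3), a log2 fold change of 0.96 ± 0.16 (SE, edgeR, adjusted p = 0.0184) and a 95% interval of 1.502-fold to 2.523-fold. The gene ranked 301 of 12241 by p. The estimate stayed between 0.860 and 1.122 when any 1 pool was left out, but the call was lost without control R (adjusted p = 0.0968) or without HCQ-evolved L (0.0741), M (0.134) or R (0.104), by edgeR in each case.

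In OVCAR3 the KDM3A levels were 45.8, 66.1 and 45.3 CPM in control pools and 62.0, 66.2 and 98.2 CPM in HCQ-evolved pools (L, M, R). The groups overlapped, since control M lay above HCQ-evolved L. The log2 fold change of 0.53 ± 0.26 was not called by edgeR (adjusted p = 0.368) and its 95% interval ran from 0.95-fold to 2.18-fold. Without the HCQ-evolved R pool it was 0.29 (edgeR adjusted p = 0.497).

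KDM3B, the closest paralog of KDM3A and also an H3K9 demethylase, had control CCL218 levels of 116, 157 and 131 CPM and HCQ-evolved levels of 131, 163 and 173 CPM, and these overlapped. Its log2 fold change was 0.21 ± 0.17 in CCL218 (edgeR adjusted p = 0.462) and 0.21 ± 0.34 in OVCAR3 (0.810), where HCQ-evolved R held 150 CPM and the other pools of that group 76.0 and 72.6 CPM. Without that pool the OVCAR3 estimate for KDM3B was -0.21.

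KDM4B, an H3K9 and H3K36 demethylase, gave the smallest pool spread among the called members. Control CCL218 pools held 59.3, 63.7 and 54.1 CPM and HCQ-evolved pools 102, 102 and 90.9 CPM. With group means of 59.0 ± 4.78 and 98.2 ± 6.30 CPM (SD, n = 3) and no overlap, the log2 fold change was 0.73 ± 0.12 (edgeR adjusted p = 0.0193; 95% interval 1.36-fold to 2.04-fold). It stayed between 0.67 and 0.80 with any 1 pool left out, and the call was lost without control R (0.0964) or HCQ-evolved L (0.110), M (0.140) or R (0.0892), as edgeR adjusted p.

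In OVCAR3 the KDM4B levels were 53.0, 66.1 and 48.9 CPM in control and 72.8, 72.7 and 94.8 CPM in HCQ-evolved pools. All HCQ-evolved pools were the higher ones, but the log2 fold change of 0.52 ± 0.21 did not pass (edgeR adjusted p = 0.268). It was 0.38 without HCQ-evolved R. With the trend of counts on transcript length and GC content removed from each library, KDM4B was called higher in OVCAR3 as well (0.62, edgeR adjusted p = 0.0203).

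The other KDM4 members were not called in either line. KDM4C, which has the same substrates, had 35.6, 54.6 and 46.3 CPM in control and 58.9, 60.3 and 57.9 CPM in HCQ-evolved CCL218 pools. These pools did not overlap, but the log2 fold change was 0.38 ± 0.17 (edgeR adjusted p = 0.223), and in OVCAR3 it was 0.16 ± 0.20 (0.748; 0.081 without HCQ-evolved R). KDM4A, the paralog whose start window is printed above, had log2 fold changes of -0.15 ± 0.22 in OVCAR3 and -0.10 ± 0.15 in CCL218 (edgeR adjusted p = 0.784 and 0.707), with 95% intervals from 0.63-fold to 1.29-fold and from 0.73-fold to 1.19-fold. Without HCQ-evolved R the OVCAR3 estimate of KDM4A was -0.38 (edgeR adjusted p = 0.299).

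KDM5A and KDM5B, which remove methyl groups from H3K4, had unlike estimates in CCL218. KDM5B had 80.9, 129 and 112 CPM in control and 132, 155 and 153 CPM in HCQ-evolved CCL218 pools. The HCQ-evolved pools were all higher, with a log2 fold change of 0.45 ± 0.19 that did not pass the adjusted threshold (edgeR adjusted p = 0.192); it was called once the length and GC trend was removed (0.36, edgeR adjusted p = 0.0231). In OVCAR3 the KDM5B estimate was -0.05 ± 0.29 (edgeR adjusted p = 0.960), and -0.38 without HCQ-evolved R (0.389).

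KDM5A had 45.6, 90.9 and 74.3 CPM in control and 64.2, 75.6 and 81.8 CPM in HCQ-evolved CCL218 pools, a log2 fold change of 0.07 ± 0.25 (edgeR adjusted p = 0.874). Its estimate in OVCAR3 was 0.16 ± 0.31 (0.856), and HCQ-evolved R held 76.8 CPM where L and M held 39.1 and 39.5 CPM. Without that pool it was -0.24. KDM5A had the longest transcript of the members, 10701 bases.

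KDM6B, an H3K27 demethylase that is also an early response gene, was the member with the lowest ratio of HCQ-evolved to control. Control OVCAR3 pools held 78.4, 66.5 and 44.3 CPM and HCQ-evolved pools 27.3, 25.6 and 37.9 CPM. Every HCQ-evolved pool lay below every control pool (63.1 ± 17.3 and 30.3 ± 6.68 CPM, SD, n = 3), with a log2 fold change of -1.06 ± 0.27, a 95% interval of 0.31-fold to 0.74-fold and an edgeR adjusted p of 0.102. Adjusted p-values below the threshold came from DESeq2 (0.0114), from an edgeR fit of all 12 libraries (0.0168), from edgeR with the length and GC trend removed (0.0165) and from edgeR without HCQ-evolved R (0.0346, log2 fold change -1.25).

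In CCL218 the KDM6B levels were 102, 83.5 and 65.8 CPM in control and 61.0, 68.5 and 70.6 CPM in HCQ-evolved pools. The groups overlapped at the control R pool, and the log2 fold change was -0.33 ± 0.18 (edgeR adjusted p = 0.293).

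KDM2A and KDM2B, H3K36 demethylases with a zinc finger that binds unmethylated CpG, were not called in either line. KDM2A had 186, 246 and 212 CPM in control and 225, 245 and 257 CPM in HCQ-evolved CCL218 pools, a log2 fold change of 0.17 ± 0.14 (edgeR adjusted p = 0.465), and 0.07 ± 0.27 in OVCAR3 (0.927). KDM2B, which recruits a variant Polycomb complex 1, had estimates of -0.07 ± 0.17 in CCL218 and 0.03 ± 0.25 in OVCAR3 (0.816 and 0.9696). The 95% intervals in CCL218 were 0.90-fold to 1.42-fold for KDM2A and 0.72-fold to 1.26-fold for KDM2B. Without HCQ-evolved R the OVCAR3 estimates were -0.26 for KDM2A and -0.22 for KDM2B (edgeR adjusted p = 0.501 and 0.5995).

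**Figure D2:**
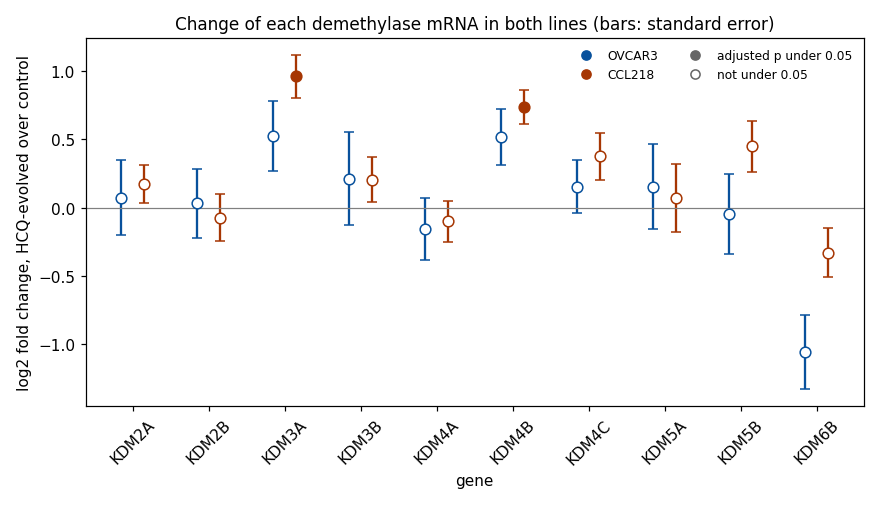
Log2 fold change of HCQ-evolved over control (y axis) with its standard error for each of the 10 genes (x axis) in both lines, filled where edgeR's adjusted p was under 0.05. The filled points are KDM3A (0.96) and KDM4B (0.73) in CCL218, and the lowest point is KDM6B in OVCAR3 (-1.06).

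No member was called for a difference between the lines in its HCQ-evolved over control change, where 0.872% of 12613 genes were called by edgeR's interaction test. The largest difference was that of KDM6B, 0.76 ± 0.34 higher in CCL218 than in OVCAR3 (edgeR adjusted p = 0.525). It was the 1 member under 0.05 before adjustment, as were 1149 of 12613 genes tested, and DESeq2 called 0 members. For KDM3A the difference was 0.46 ± 0.30 (0.829; 95% interval -0.20 to 1.11) and for KDM4B 0.24 ± 0.22 (0.967; -0.24 to 0.72). The call of KDM3A and KDM4B in CCL218 alone thus does not show that the lines differ.

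Ratios of paralogs within a pool do not depend on library size and were added after the values had been seen. They were not corrected for the trends with transcript length and GC content given below, and their level rests on the transcript lengths used. KDM3A and KDM3B differ in both (4667 and 6724 bases, 43.9% and 50.2% GC), and the part of these trends in the ratios was not tested. Per kilobase of transcript, KDM3A stood at 0.716, 0.731 and 0.680 of KDM3B in control CCL218 pools and at 1.30, 1.24 and 1.08 in HCQ-evolved pools. KDM3A was thus the lower transcript in all control pools and the higher in all HCQ-evolved pools, a 1.70-fold higher ratio (exact permutation p = 0.1, the smallest that 3 against 3 pools allow). In OVCAR3 the ratio was 0.885, 0.832 and 0.949 in control and 1.18, 1.32 and 0.945 in HCQ-evolved pools, with R inside the control range; without that pool the log2 change was 0.49 in place of 0.35.

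KDM4B over KDM4A was higher in HCQ-evolved pools of both lines. It went from 0.681, 0.759 and 0.695 to 1.221, 1.196 and 1.041 in OVCAR3, and from 0.749, 0.602 and 0.502 to 1.17, 1.08 and 0.984 in CCL218. The groups did not overlap in either line, with 1.62-fold and 1.77-fold higher geometric means (exact permutation p = 0.1 in each, the smallest possible), and the HCQ-evolved OVCAR3 R pool followed the others of its group here. KDM4C over KDM4A was 1.40-fold higher in CCL218 without overlap and 1.27-fold higher in OVCAR3 with overlap.

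KDM5B over KDM5A had changes of opposite sign in the lines. In OVCAR3 it was 1.83, 1.96 and 1.84 in control and 1.74, 1.69 and 1.56 in HCQ-evolved pools, and in CCL218 2.04, 1.64 and 1.74 in control and 2.36, 2.37 and 2.15 in HCQ-evolved pools. All HCQ-evolved pools lay below the controls in OVCAR3 and above them in CCL218, and the log2 changes of -0.17 and 0.35 differed by 0.52 (exact permutation test within lines, two-sided p = 0.005, the smallest of 400 arrangements; 0.03 after Benjamini-Hochberg adjustment over the 6 paralog pairs). With CCL218 labels exchanged only within a plate position, which takes those pools as paired, the exact permutation p was 0.0125, the smallest that 160 arrangements allow. It was 0.075 after adjustment, so the difference did not pass. A single pair at the smallest p cannot get below 0.075 over 6 pairs, so this form of the test cannot decide. KDM6B over KDM6A, the other H3K27 demethylase, was lower without overlap in both lines (0.36-fold in OVCAR3 and 0.57-fold in CCL218), but the control L pools stood apart at 5.46 and 5.96 against 1.76 to 2.37 in the other control pools. KDM2B over KDM2A was 0.85-fold in CCL218 without overlap and 0.98-fold in OVCAR3 with overlap, and for the 5 other pairs the difference between lines did not pass the exact permutation test (p = 0.24 to 0.825).

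**Figure D3:**
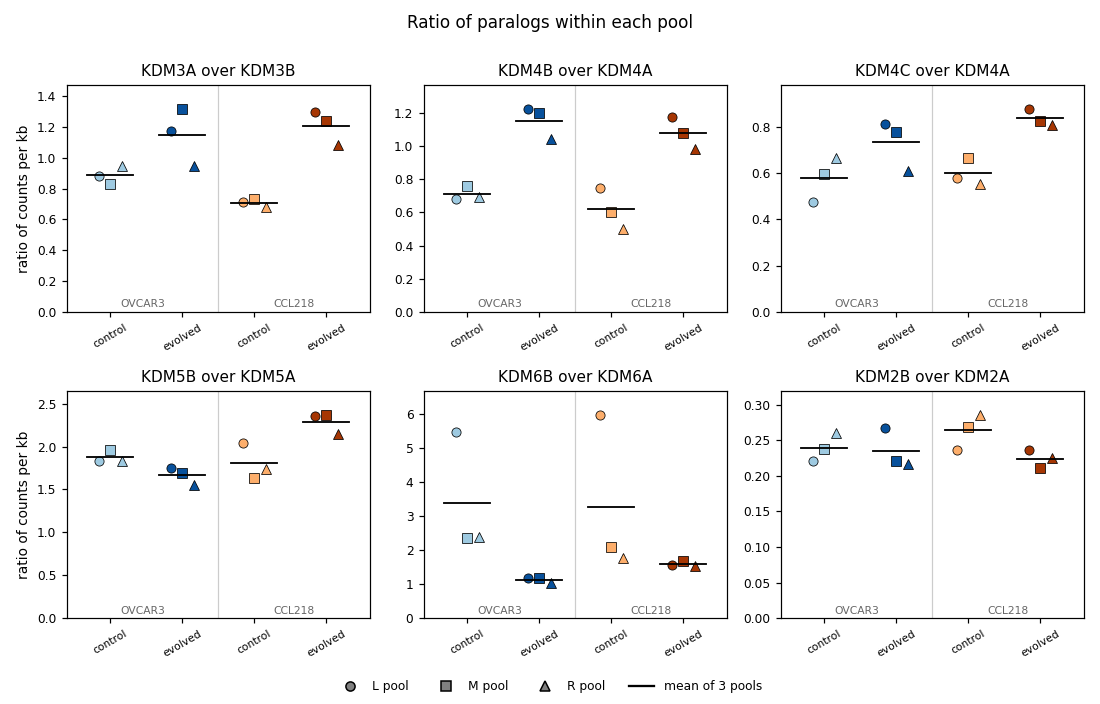
Ratio of counts per kilobase of transcript (y axis, from 0) of 6 paralog pairs within each pool, with the mean of 3 pools as a bar. KDM4B over KDM4A was higher in all HCQ-evolved pools of both lines, and KDM5B over KDM5A was lower in OVCAR3 and higher in CCL218.

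Ordered by CPM per kilobase of transcript, KDM2A had the highest level in all 4 groups, 22.1 ± 3.79 in control OVCAR3 and 29.1 ± 4.06 in control CCL218, and in both control groups its pools were apart from the next gene. KDM3A was the fourth in both control groups (11.2 ± 2.54 in OVCAR3 and 14.2 ± 2.52 in CCL218) and the second in both HCQ-evolved groups (16.2 ± 4.24 and 27.7 ± 2.35). Its pools overlapped those of its neighbours in that order in all groups except for KDM2A in HCQ-evolved CCL218. KDM6B went from the sixth place to the last in OVCAR3 (9.37 ± 2.57 to 4.50 ± 0.99) and from the fifth to the eighth place in CCL218 (12.5 ± 2.70 to 9.91 ± 0.75), and KDM5A and KDM2B were the lowest in both control groups, at 4.35 ± 0.83 and 5.29 ± 0.83 in OVCAR3.

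The members share long transcripts, 4338 to 10701 bases in GENCODE against a median of 3233 bases among genes tested in OVCAR3. Across genes, log2 fold changes were higher with transcript length (Spearman's rho 0.16 in OVCAR3 and 0.25 in CCL218) and lower with GC content (-0.24 and -0.25), and genes are not independent replicates. Tested genes in the members' length range had median log2 fold changes of 0.091 in OVCAR3 and 0.088 in CCL218, and 60.7% of them lay above 0 in both. The same genes shifted from pool to pool together with the members: in HCQ-evolved OVCAR3 R the members' median deviation from the line's mean was 0.51 and that of genes of like length 0.38, and in control CCL218 L the medians were -0.34 and -0.29. Without HCQ-evolved OVCAR3 R, 3 of 10 members had a log2 fold change above 0 in OVCAR3 and their median was -0.23. Control OVCAR3 M shifted the same way as that pool, with medians of 0.24 for the members and 0.20 for genes of like length. Without control OVCAR3 M instead, 8 of 10 members were above 0 and their median was 0.23. With the length and GC trend removed, KDM3A stood at 0.84 (edgeR adjusted p = 0.00269) and KDM4B at 0.73 (0.00296) in CCL218.

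**Figure D4:**
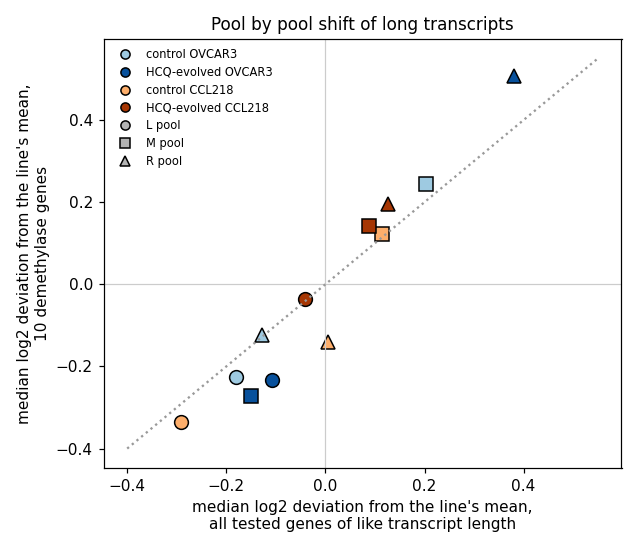
Median log2 deviation of the 10 demethylase genes from the line's mean (y axis) against that of all tested genes with transcripts of 4338 to 10701 bases (x axis), 1 point for each of 12 pools, with the line of equal values dotted. The HCQ-evolved OVCAR3 R pool is the highest on both axes, at 0.51 and 0.38, and the control CCL218 L pool is the lowest on both, at -0.34 and -0.29.

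Among 11944 genes tested in both lines, those whose log2 CPM was most like that of KDM3A over the 12 libraries, after the mean of each line was removed, were CRTAP (Pearson's r = 0.986), PPP1R3B (0.984), IFNAR1 (0.983), DSG2 (0.9799) and KIAA1522 (0.9796). These libraries share the length trend given above, so the values are descriptions. The likeness includes the difference between HCQ-evolved and control pools, so the calls of these 5 genes are not separate evidence. With the mean of each group removed their r was 0.955 to 0.978. In CCL218, edgeR called PPP1R3B (0.88 ± 0.18, adjusted p = 0.0360), DSG2 (1.17 ± 0.23, 0.0312) and KIAA1522 (0.63 ± 0.15, 0.0489) higher, but not CRTAP (0.44 ± 0.12, 0.0683) or IFNAR1 (0.23 ± 0.11, 0.255), and none of the 5 was called in OVCAR3, where the adjusted p was 0.333 to 0.668. Of the members, KDM4B was the nearest (r = 0.961, rank 30), followed by KDM4C (0.848, rank 554), and KDM6B was the farthest (-0.40). That order includes the difference between HCQ-evolved and control pools. With the mean of each group removed it was another one, led by KDM3B (0.952), KDM5B (0.945) and KDM2A (0.925), with KDM4B at 0.864, KDM4C at 0.736 and KDM6B at 0.40.

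Other HIF targets were followed in a list drawn up with earlier results of these data known, and in CCL218 KDM3A and KDM4B rose beside them. Of 28 tested hypoxia targets outside the family, 7 rose and none fell in OVCAR3, and of 29 in CCL218, 25 rose and none fell by edgeR, with medians of 0.99 and 1.35 on the log2 scale against 0.016 and -0.017 over all genes. Without HCQ-evolved OVCAR3 R, 13 of 28 rose in OVCAR3 (median 0.92). P4HA2, a collagen prolyl hydroxylase, went from 84.4 ± 10.04 to 215 ± 23.9 CPM in OVCAR3 (SD, n = 3; log2 fold change 1.35, edgeR adjusted p = 0.0186) and from 60.6 ± 2.93 to 308 ± 31.5 CPM in CCL218 (2.34, 4.53e-04), and it was called for the difference between lines (1.01, 0.0435). BHLHE40, a transcriptional repressor, rose in CCL218 from 20.5 ± 5.14 to 130 ± 11.7 CPM (2.67, edgeR adjusted p = 0.00164) and was called for the difference as well (1.66, 0.0197).

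ENO2, the neuronal enolase of glycolysis, rose in both lines (log2 fold change 1.81 in OVCAR3 and 2.23 in CCL218; edgeR adjusted p = 0.0101 and 0.00102), as did PFKFB4, a regulator of glycolysis (1.78 and 2.21; 0.0101 and 0.00103), and ALDOC, an aldolase (1.48 and 2.16; 0.0241 and 0.00225). VEGFA, the angiogenic growth factor, rose in CCL218 (1.54, edgeR adjusted p = 0.00199) and stood at 0.74 in OVCAR3 (0.116). The values of KDM3A and KDM4B were below the median of these targets in both lines.

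**Figure D5:**
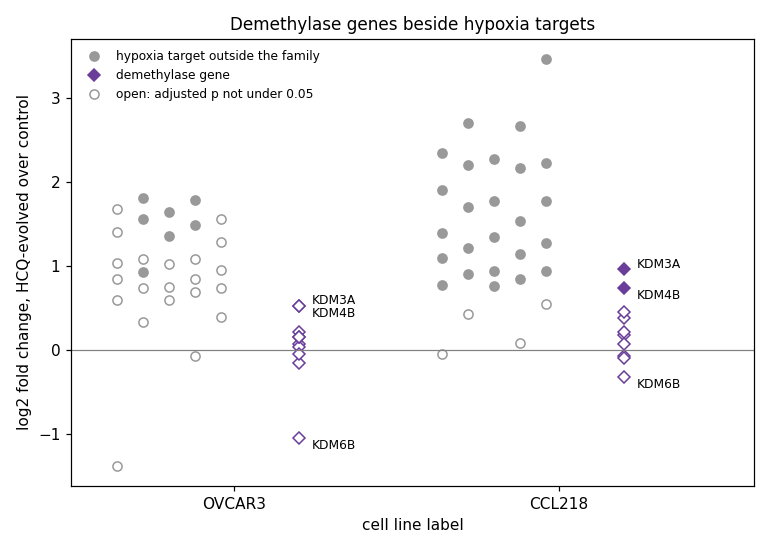
Log2 fold change of HCQ-evolved over control (y axis) of tested hypoxia targets outside the family (circles) and of the 10 demethylase genes (diamonds) in both lines (x axis), filled where edgeR's adjusted p was under 0.05; horizontal spread within circles has no meaning. KDM3A (0.96) and KDM4B (0.73) are the filled diamonds and lie below the median of the targets in CCL218 (1.35).

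Of the HIF axis itself, 7 of 10 genes were tested in each line. EGLN3, a HIF prolyl hydroxylase and itself a HIF target, rose from 43.4 ± 0.83 to 126 ± 9.97 CPM in OVCAR3 (log2 fold change 1.54, edgeR adjusted p = 0.0101) and from 37.3 ± 6.85 to 170 ± 17.2 CPM in CCL218 (2.19, 0.00164). EGLN1, the main HIF prolyl hydroxylase, rose in CCL218 (1.15, edgeR adjusted p = 0.00724) and stood at 0.98 in OVCAR3 (0.0640). No other HIF axis gene was called in either line, and without HCQ-evolved R EGLN1 was called in OVCAR3 as well (0.83, edgeR adjusted p = 0.0499).

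Among other proteins with a JmjC domain, 1 of 19 tested rose in CCL218 and none fell, where 3.82% and 2.64% of all genes did. It was KDM4D, a KDM4 paralog, which went from 0.771 ± 0.126 to 1.99 ± 0.161 CPM (SD, n = 3; log2 fold change 1.37, edgeR adjusted p = 0.0194); it was under the expression filter in OVCAR3 (0.780 and 0.898 CPM). None of 18 was called in OVCAR3 with or without HCQ-evolved R, where 0.647% and 1.21% of all genes were called higher and lower in the fit of all pools. Before adjustment 2 were lower in OVCAR3, and 1 was higher and 5 were lower in CCL218 (KDM8, JMJD4, JMJD8, RIOX1 and RIOX2, named after their values were seen). Of all genes tested, 1983 of 12204 in OVCAR3 and 3084 of 12241 in CCL218 were under 0.05 before adjustment. The medians of this list were -0.16 in OVCAR3 and -0.0018 in CCL218.

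The enzymes that act on the same lysines were followed by list, and without HCQ-evolved R none of the H3K9, H3K4 and H3K36 lists or of the KDM2B partners gave a call in OVCAR3 by edgeR. None of 8 tested H3K9 methyltransferases and readers was called in either line (before adjustment 1 was under 0.05 in OVCAR3 and 0 in CCL218). SUV39H1 had the smallest p in OVCAR3 (0.56, edgeR adjusted p = 0.1504) and SUV39H2 in CCL218 (-0.21, 0.541). EHMT2, also on this list, had a mean of 0 CPM in both control groups and was not tested, so its change is unknown. Of 12 H3K4 methyltransferases and shared subunits, only MEN1, the menin scaffold of the MLL complexes, was called, falling in CCL218 from 104 ± 17.8 to 62.6 ± 3.58 CPM (log2 fold change -0.73, edgeR adjusted p = 0.0363). None of 7 H3K36 methyltransferases was called, or under 0.05 before adjustment, in either line (NSD2 0.65 in OVCAR3, edgeR adjusted p = 0.360; NSD3 0.28 in CCL218, 0.431).

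Among 10 tested subunits of Polycomb repressive complex 2, which writes the mark that KDM6B removes, EED rose in CCL218 from 33.2 ± 4.38 to 52.7 ± 3.68 CPM (log2 fold change 0.67, edgeR adjusted p = 0.0391) and stood at 0.72 in OVCAR3 (0.218). In OVCAR3 all 10 had log2 fold changes above 0, with a median of 0.45, 4 under 0.05 before adjustment and none called; without HCQ-evolved R 8 of 10 were above 0, with a median of 0.41 and none called. None of 8 tested partners of KDM2B in the variant Polycomb complex 1 was called in either line (0 in OVCAR3 and 2 in CCL218 were under 0.05 before adjustment). The smallest p was that of SKP1 in OVCAR3 (0.51, edgeR adjusted p = 0.437) and of RNF2 in CCL218 (0.28, 0.175). RING1, also on this list, had 0 CPM in all groups and was not tested, so its change is unknown as well.

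Flavin-dependent demethylases and their CoREST partners gave no call among 9 tested in either line (1 higher and 1 lower under 0.05 before adjustment in each), the lowest p in each being that of the corepressor RCOR2 (-1.91 in OVCAR3, edgeR adjusted p = 0.0517; -0.61 in CCL218, 0.116); without HCQ-evolved R RCOR2 was called lower in OVCAR3 (-1.59, 0.00675). None of 18 genes for 2-oxoglutarate, succinate and fumarate enzymes, which set the levels of the cosubstrate and inhibitors of the Jumonji enzymes, was called in either line, or in OVCAR3 without HCQ-evolved R (3 in OVCAR3 and 2 in CCL218 were higher at 0.05 before adjustment). Their smallest p was that of SDHA, a succinate dehydrogenase subunit (0.65 in OVCAR3 and 0.56 in CCL218; edgeR adjusted p = 0.176 and 0.0649).

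Of genes linked to KDM3A as targets or coactivators, 5 of 12 tested were called for a difference between the lines. This list too was chosen with earlier results of these data known. Among all genes tested, edgeR called 0.872% for that difference. It called 0.647% higher and 1.21% lower in OVCAR3, and 3.82% higher and 2.64% lower in CCL218. In OVCAR3, 5 of 12 tested fell by edgeR and none rose: CCN2 (log2 fold change -3.73, adjusted p = 0.0272), CCN1 (-2.14, 0.0206), WWTR1 (-2.02, 0.0406, at 1.34 CPM in controls), JUN (-1.78, 0.0289) and KLF2 (-1.43, 0.0364). CCN1, CCN2 and WWTR1 belong to the YAP and TAZ pathway of growth control, and JUN and KLF2 are early response transcription factors. In CCL218, 2 of 11 rose and none fell by edgeR: KLF4 (20.4 ± 1.503 to 55.0 ± 4.14 CPM, SD, n = 3; 1.43, adjusted p = 0.00253) and ADM (1.78, 0.0225), which is also one of the hypoxia targets. Without HCQ-evolved R the same 5 genes fell in OVCAR3 and ADM rose (1.90, edgeR adjusted p = 0.00465). By edgeR's interaction test CCN1, CCN2, JUN, KLF2 and KLF4 were the genes called for the difference between the lines (adjusted p = 0.0267, 0.0223, 0.0357, 0.00890 and 0.00474). KDM3A itself was not.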

How the data were processed

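RNA-seq of 12 polyA libraries was analysed. The authors aligned reads to hg38 with STAR, removed duplicates with RmDup and counted genes with featureCounts; the deposited values are raw counts per gene symbol. Annotation and strand setting are not given in the sources used here, so reads of a gene and of an overlapping antisense gene (KDM4A and KDM4A-AS1, KDM2B and RNF34, KDM5A and CCDC77) cannot be told apart. Groups came from the labels. edgeR 4.0.16 (R 4.3.3; TMM, robust quasi-likelihood F test) was fitted to each line alone over genes that reached 1 CPM in 3 or more libraries, with Benjamini-Hochberg adjustment over all genes tested (threshold 0.05) and an interaction test over 12 libraries. CPM are TMM-normalized; lengths and GC content are from GENCODE canonical transcripts (91.1% of symbols matched). Alternatives were relative log expression scaling, DESeq2 1.42.0, no filter (any gene with a count), one fit of 12 libraries, plate position as a replicate block, a spline on length and GC content removed, and each pool left out. Same-position pools deviated together in CCL218 (r = 0.58, 0.31 and 0.24 for L, M and R), so position was taken to pair them. Control M and HCQ-evolved R, of unlike position, reached r = 0.51, so this pairing is an assumption. Code was tested on simulated data. Members and lists were chosen with earlier results of these data known. Named genes are all members, those of each list called in either line (at most 6 by p, otherwise the smallest p in each line) and the 5 most like KDM3A.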

Additional observations from a re-analysis of the deposited data

Results flagged for a closer look

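The ratio of KDM5B to KDM5A per kilobase was singled out because its HCQ-evolved over control change had opposite signs in the lines and the difference itself was tested: the log2 change was 0.52 higher in CCL218 than in OVCAR3 (exact permutation p = 0.005, adjusted p = 0.03 over 6 pairs). The difference did not pass when CCL218 labels were exchanged only within a plate position (exact permutation p = 0.0125, the smallest that 160 arrangements allow, adjusted p = 0.075). A single pair cannot pass in that form whatever the size of its difference, so that form cannot decide. The difference ranged from 0.45 to 0.61 when any 1 of the 12 pools was left out, and this was examined after the values had been seen. By edgeR's interaction test KDM5B itself was 0.52 higher (adjusted p = 0.855) and KDM5A 0.06 lower on the log2 scale (-0.06, adjusted p = 0.999).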

How the results depend on the processing

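KDM3A and KDM4B in CCL218 stayed called under relative log expression scaling, DESeq2, no filter, one fit of 12 libraries, the replicate block and the length and GC correction; 2 members were called under all of these but the last, which called 3. Leaving out a pool gave 0 to 2 called in CCL218 and 0 to 1 in OVCAR3, where the main count of 0 became 1 with DESeq2, 1 with one fit of 12 libraries and 2 with length and GC removed. In the interaction test length and GC removal called 1 member, KDM5B (0.48, adjusted p = 0.0488), and the other alternatives 0.

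Of all settings for single members, 361 kept direction and side of the threshold, 7 moved past it, 8 fell short of it and 34 changed sign. With length and GC removed the differences between lines turned to -0.095 for KDM3B and -0.034 for KDM4A, and with the replicate block that of KDM5A turned to 0.049. With pools left out, log2 fold changes in OVCAR3 ran from -0.26 to 0.22 for KDM2A, -0.22 to 0.20 for KDM2B, -0.21 to 0.47 for KDM3B, -0.24 to 0.32 for KDM5A and -0.38 to 0.15 for KDM5B, and in CCL218 from -0.23 to 0.060 for KDM2B and -0.17 to 0.31 for KDM5A. Differences between lines ran from -0.012 to 0.44 for KDM2A, -0.24 to 0.16 for KDM2B, -0.22 to 0.42 for KDM3B, -0.049 to 0.29 for KDM4A and -0.29 to 0.32 for KDM5A. Log2 ratio changes ran from -0.13 to 0.032 for KDM2B over KDM2A in OVCAR3, and the difference between lines for KDM4B over KDM4A from -0.013 to 0.28. The cause of these changes was not tested.

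Counts over all genes moved more. The 227 genes of OVCAR3 (79 higher) became 1062 (507 higher) with DESeq2, 549 without a filter, 1165 (558 higher) in one fit, 81 with the replicate block, 1066 (615 higher) with length and GC removed and 3 to 557 with a pool left out. In CCL218 791 became 1931, 1744 (block) and 2365 (length and GC), and 102 to 3047 with a pool left out. The interaction count of 110 became 387, 35 and 450, and 38 to 212. In OVCAR3 same-position pools deviated together for L (r = 0.45) but in opposite directions for M and R (r = -0.73 and -0.53). Position was therefore not taken to pair the OVCAR3 pools. The lowest member count in a library was 1056 (KDM2B), a depth at which counting error is small beside the spread between pools.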

Other observations

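Colorectal markers also moved. The shares of all genes tested that edgeR called were 3.82% higher and 2.64% lower in CCL218, and 0.647% higher and 1.21% lower in OVCAR3. Without HCQ-evolved R the OVCAR3 shares were 1.92% higher and 2.67% lower. In CCL218, 4 of 11 tested rose and 2 fell by edgeR: CDH17, an intestinal cadherin (log2 fold change 3.77, adjusted p = 0.00120), GPA33, an intestinal surface antigen (2.86, 6.08e-04), CEACAM5 (2.10, 0.00103) and CDX2, an intestinal transcription factor (1.54, 0.00275) rose, and LGR5, a stem cell receptor (-1.18, 0.0210), and ASCL2, an intestinal stem cell factor (-2.60, 0.0263), fell. In OVCAR3 none of 11 rose and 2 fell by edgeR, MUC2, the main intestinal mucin (-2.18, adjusted p = 0.0276), and ASCL2 (-1.60, 0.0456), the latter named after its values were seen. Without HCQ-evolved OVCAR3 R, 1 of 11 rose (GPA33, 1.17, edgeR adjusted p = 0.0240) and 4 fell (VIL1, ASCL2, FABP1 and MUC2). Of 5 tested ovarian markers none was called in either line, or in OVCAR3 without that pool (FOLR1 -1.12 in OVCAR3, edgeR adjusted p = 0.0799; MSLN 0.75 in CCL218, 0.181). Their part in the levels of the demethylase genes was not tested.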
